A study of Mus musculus with 6 samples.

Results

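The genes examined are 7 mouse genes that make, package, take up and break down GABA (γ-aminobutyric acid), the main inhibitory transmitter of the adult brain. They were chosen by their symbols (Gad1, Gad2, Slc32a1, Slc6a11, Slc6a13, Abat and Aldh5a1) from the 54532 genes of a hippocampal RNA-seq table. All 7 were found and all 7 passed the filter on low values. RNA of the hippocampus was read from 3 WT and 3 TG libraries, named WT1 to WT3 and TG1 to TG3 by the replicate numbers of their labels. The TG mice are knock-in mice made by CRISPR/Cas9, with the G82R and L85P changes together in exon 3 of Slc1a2, which encodes the astrocytic glutamate transporter GLT-1. WT littermates on the same C57BL/6N background, without these changes, were the controls, and the labels name no treatment beyond genotype. The comparison asks how the hippocampal transcriptome differs in mice with these GLT-1 changes, and here it is followed for GABA metabolism. Age, sex and zygosity of the sequenced mice were not given in the sources used here, nor was the number of animals behind a library. Sex-linked genes had a male pattern in all libraries. The changes are carried in every cell, since no Cre or cell-type promoter was used.

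GABA is made from glutamate by 2 glutamate decarboxylases, GAD67 from Gad1 and GAD65 from Gad2, and is loaded into synaptic vesicles by the transporter VGAT from Slc32a1. In the hippocampus these 3 genes are known as genes of GABAergic interneurons. After release, GABA is taken up by sodium-dependent transporters, among them GAT3 (Slc6a11), known from astrocytes, and GAT2 (Slc6a13), known in the brain mainly from the meninges and blood vessels. GABA transaminase (Abat) and succinic semialdehyde dehydrogenase (Aldh5a1) then turn it in mitochondria into succinate.

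The members include 2 pairs of related genes, and their coding sequences were set side by side to see how far reads of one could be taken for reads of the other. Over 1742 aligned bases, the coding sequences of Gad1 (1782 bases) and Gad2 (1758 bases) were identical at 67.0%, and their longest shared run was 17 bases. The run lies around the codon of the lysine that holds the pyridoxal phosphate cofactor of both enzymes. Both stretches are shown 5′ to 3′ on the + strand, spliced, with the shared run in capitals, from the GENCODE M21 transcripts in GRCm38. The Gad1 stretch joins exons 12 and 13 of 17 (chr2:70591163-70593500), and the Gad2 stretch joins exons 11 and 12 of 16 (chr2:22669758-22674012).
Gad1: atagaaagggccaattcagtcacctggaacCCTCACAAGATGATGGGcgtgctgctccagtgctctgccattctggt
Gad2: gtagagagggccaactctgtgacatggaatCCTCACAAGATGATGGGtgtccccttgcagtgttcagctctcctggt

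For the uptake transporters, the coding sequences of Slc6a11 (1884 bases) and Slc6a13 (1809 bases) were identical at 71.7% of 1806 aligned bases, with a longest shared run of 19 bases. Here too the shared run is in capitals. The Slc6a11 stretch lies in exon 3 of 14 (chr6:114134854-114134932, + strand), and the Slc6a13 stretch in exon 4 of 15 (chr6:121321567-121321645, + strand).
Slc6a11: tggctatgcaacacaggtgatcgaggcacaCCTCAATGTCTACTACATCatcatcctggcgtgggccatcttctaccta
Slc6a13: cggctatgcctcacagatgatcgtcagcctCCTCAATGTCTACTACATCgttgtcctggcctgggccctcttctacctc
Over whole transcripts, no stretch of 50 bases in Slc6a11 or Abat occurred in a transcript of another gene. Such stretches made up 0.140% of Slc6a13 (shared with Slc6a12), 1.49% of Gad1 and 1.17% of Gad2, and none of the Gad1 stretches was shared with Gad2.

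Values are FPKM, the reads of a gene scaled to the length of its exons and to the reads of the library. That length is the union of all annotated exons, 7639 bases for Gad1 (8 transcripts) and 2797 bases for Slc32a1 (1 transcript). Levels of different genes can thus be compared only roughly, because this length need not be that of the transcripts present. For a given gene it enters in the same way in every library, so it does not affect the comparison of TG with WT. The libraries held between 16081281 and 18751057 reads on genes. Slc1a2 itself, the changed gene, had 202, 199.5 and 177 FPKM in WT1 to WT3 and 222, 207 and 217 FPKM in TG1 to TG3, and FPKM cannot show the altered bases. Among marker genes, those of the choroid plexus, which secretes the cerebrospinal fluid, had a summed level of 83.8 to 113 FPKM in the WT libraries against 1348 in TG1, 4221 in TG2 and 93.7 in TG3, so TG1 and TG2 stood apart. Over all genes, WT3 was the library farthest from the others, with a median chi-square per gene of 3.41 to 5.18 against each of them, while the other pairs of libraries had 1.36 to 2.31. Excitatory neurons were represented in all libraries, with Slc17a7, their vesicular glutamate transporter, at 237 to 322 FPKM. Since the animals behind each library are not listed, p-values measure only the spread between these samples, which may be technical.

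No difference between TG and WT mice passed the test in any of the 7 genes. With limma on log2(FPKM + 0.1), 0 of 7 passed an adjusted p of 0.05 (Benjamini-Hochberg over 20952 genes), where 0.00955% of all genes tested did (0.00477% higher and 0.00477% lower in TG mice). Without adjustment, at p under 0.05, the count was also 0 of 7, against 5.91% of all genes tested (3.13% with TG above WT and 2.78% below), and limma-voom on the recovered reads likewise gave 0 of 7 with and without adjustment. In none of the 7 were the 3 TG libraries all above or all below the 3 WT libraries, as they were for 12.1% of all genes tested (6.35% with TG above WT). The fitted log2 difference, TG minus WT, was above 0 for 6 of 7 genes and its median was 0.04, whereas 49.6% of all genes tested were above 0 with a median of 0.00. Under quantile normalization 6 of 7 were again above 0, but Gad1 turned to 0.03 and Slc6a13 to -0.01. A fitted difference of this size cannot be told apart from 0 here, and in bulk tissue fewer cells of a type and less RNA per cell cannot be told apart either.

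**Figure D1:**
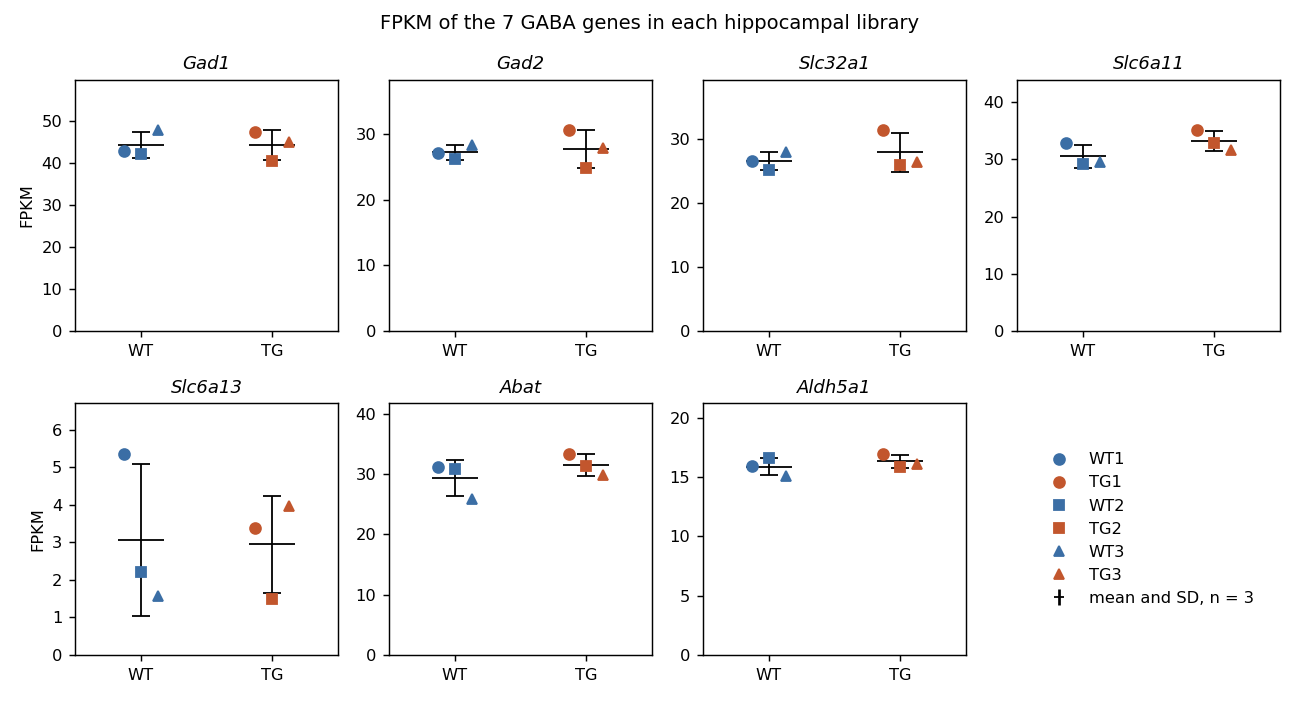
FPKM (y axes, each starting at 0) of the 7 GABA genes in 3 WT (blue) and 3 TG (orange) hippocampal libraries, with symbols for the replicate number and horizontal lines and bars for mean and SD (n = 3). The groups overlap in every panel, and Slc6a13 spreads from 1.50 to 5.36 FPKM while the other 6 genes stay within 1.29-fold.

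Gad1 (ENSMUSG00000070880, chr2:70553072-70602014 in GRCm38, + strand, 21 exon blocks) was the most abundant of the 7. Its level was 43.1, 42.2 and 48.0 FPKM in WT1 to WT3 and 47.4, 40.5 and 45.2 FPKM in TG1 to TG3. The highest library was a WT library and the lowest a TG library, and the groups overlapped over most of their range. The mean was 44.4 ± 3.12 FPKM (SD, n = 3) in WT mice and 44.4 ± 3.53 FPKM (SD, n = 3) in TG mice, a log2 difference of -0.00 (SE 0.09, limma adjusted p = 0.998). The 95% interval of the difference ran from a level 13.2% lower to one 15.0% higher in TG mice (-13.2% to 15.0%). At least 5202 reads stood behind each value, which sets a counting error of 1.39%, against an SD of 7.03% of the mean between WT libraries. Without WT3 the fitted value was 0.06, and without TG1 it was -0.05.

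Gad2 (ENSMUSG00000026787, chr2:22622205-22693874, + strand, 16 exon blocks) encodes the decarboxylase that sits at nerve terminals. It was measured at 27.1, 26.1 and 28.4 FPKM in the WT libraries and at 30.6, 24.8 and 27.8 FPKM in the TG libraries. TG1 was the highest and TG2 the lowest of the 6, with all WT libraries between them. The log2 difference was 0.02 (SE 0.09, limma adjusted p = 0.955), with a 95% interval from -12.1% to 17.5%. Leaving out TG1 gave -0.05, leaving out WT2 gave -0.01 and leaving out TG2 gave 0.10. The ratio of Gad1 to Gad2 stayed within a narrow range, at 1.59, 1.61 and 1.69 in WT mice and 1.55, 1.63 and 1.63 in TG mice. The decarboxylase genes varied by 1.18-fold and 1.23-fold between their lowest and highest libraries.

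Slc32a1 (ENSMUSG00000037771, chr2:158610767-158615748, + strand), a compact gene of 2 exon blocks, encodes the vesicular GABA transporter. Its FPKM was 26.7, 25.3 and 28.1 in WT mice and 31.5, 26.0 and 26.4 in TG mice. TG1 again was the highest library, while TG2 and TG3 lay within the WT range. The means were 26.7 ± 1.42 and 28.0 ± 3.05 FPKM (SD, n = 3 each), a log2 difference of 0.06 (SE 0.09, limma adjusted p = 0.871) with a 95% interval from -10.0% to 21.3%, and it turned to -0.02 without TG1. The ratio of Slc32a1 to Gad2 stayed between 0.950 and 1.05 over the 6 libraries. An antisense gene on the opposite strand, Gm14205, covers 697 of the exon bases of Slc32a1, and 23.7% of its 50-base stretches are shared with it. Gm14205 was listed at 0 in all libraries, and the strand rule of the counting was not stated.

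The 3 interneuron genes were set against 24 other markers of GABAergic interneurons, none of them a member. Of these 24 markers, 1 was higher and 0 were lower at an unadjusted limma p under 0.05, against 3.13% and 2.78% of all genes tested. Of the 24, 0 passed adjustment, and the median log2 difference was -0.02. Sst, the neuropeptide somatostatin, was the most abundant of them, at 292 ± 55.1 FPKM in WT and 290 ± 27.8 FPKM in TG mice (SD, n = 3 each). Across the 6 libraries, the mean centred log2 level of the 24 markers was compared with each of the 3 genes, among 6 relations of members to lists that were computed. For Gad2, Pearson's r was 0.917 (exact permutation p = 0.00556, adjusted 0.0333) and Spearman's rho was 0.943 (exact permutation p = 0.0167, adjusted 0.05). For Gad1, r was 0.907 (exact permutation p = 0.0236, adjusted 0.0472) and rho was 0.886 (exact permutation p = 0.0333, adjusted 0.0667). For Slc32a1, r was 0.839 (exact permutation p = 0.0153, adjusted 0.0458) and rho was 0.943 (exact permutation p = 0.0167, adjusted 0.05). Without TG1 and TG2, the libraries farthest out on the marker level, r was 0.856 for Gad2, 0.789 for Gad1 and 0.978 for Slc32a1. After adjustment, r passed 0.05 for all 3 genes and rho for none. The share of all genes that follow this marker mean as closely was not computed. Genes outside the marker list also lay near these 3 in profile and are named further below. The relation is thus not shown to be particular to interneuron genes. All points share the same libraries and the same scaling, and 3 libraries per group are too few for a value within each group.

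**Figure D2:**
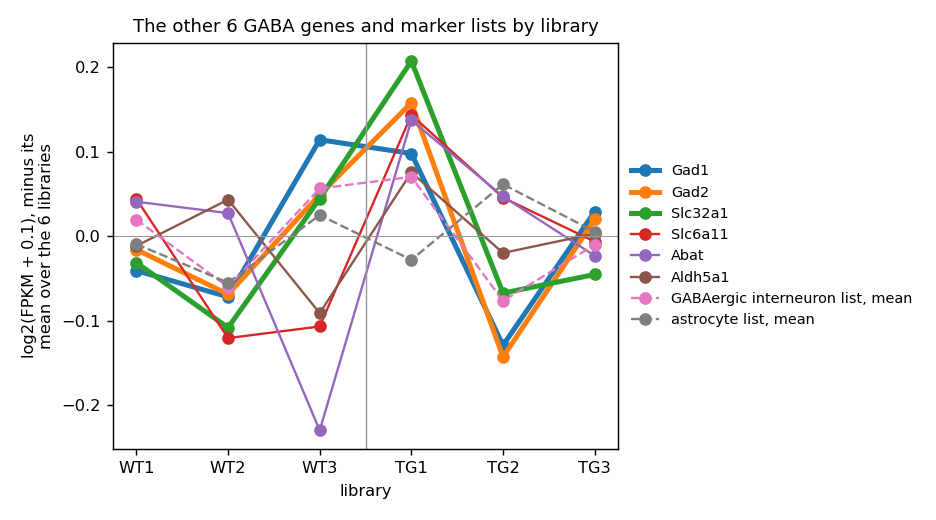
log2(FPKM + 0.1) of 6 GABA genes minus each gene's mean over the 6 libraries (y axis) for WT1 to WT3 and TG1 to TG3 (x axis), with dashed lines for the mean of 24 interneuron and 16 astrocyte markers and solid lines only joining the values of a gene. All 6 genes are above 0 in TG1, and Gad1, Gad2 and Slc32a1 (thick lines) have their 2 lowest values in WT2 and TG2.

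Slc6a11 (ENSMUSG00000030307, chr6:114131241-114249952, + strand, 14 exon blocks), the GABA transporter GAT3, had the smallest p of the 7. Levels were 32.8, 29.2 and 29.5 FPKM in WT1 to WT3 and 35.1, 32.8 and 31.7 FPKM in TG1 to TG3. All TG libraries lay above WT2 and WT3, but WT1 was higher than TG3 and close to TG2. Mean levels were 30.5 ± 1.97 FPKM in WT and 33.2 ± 1.77 FPKM in TG mice (SD, n = 3 each). The log2 difference was 0.12 (SE 0.08), with an unadjusted limma p of 0.149 and an adjusted limma p of 0.789. Its 95% interval ran from -3.76% to 23.0%. The fitted value stayed above 0 without any 1 library, between 0.08 without TG1 and 0.17 without WT1.

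Astrocyte markers were looked at beside Slc6a11. Of 16 markers, 0 passed an adjusted or an unadjusted p of 0.05 in limma, and the median log2 difference was 0.03. Over all genes tested, 0.00955% passed the adjusted and 5.91% the unadjusted level, so a count of 0 says little. Slc7a10, an astrocytic amino acid transporter, had the smallest p, at 9.30 ± 0.819 FPKM in WT and 11.5 ± 2.41 FPKM in TG mice (SD, n = 3, limma adjusted p = 0.789). Aldoc, the brain aldolase and the most abundant marker, was at 274 ± 35.6 and 255 ± 3.55 FPKM. Slc6a11 did not follow the mean of these 16 markers over the libraries, with r = 0.112 (exact permutation p = 0.857, adjusted 0.857) and rho = 0.2 (exact permutation p = 0.714, adjusted 0.857). Without WT2 and TG2, the farthest out on the marker level, r was -0.997, so the pooled value rests on those libraries. The marker mean itself moved by little, between -0.05 and 0.06 on the log2 scale.

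Slc6a13 (ENSMUSG00000030108, chr6:121300227-121337733, + strand, 16 exon blocks), the GABA transporter GAT2, was the least abundant and by far the most variable of the 7. It was measured at 5.36, 2.22 and 1.58 FPKM in WT1 to WT3 and at 3.37, 1.50 and 3.97 FPKM in TG1 to TG3. The highest library was WT1 and the lowest TG2, and each group held both high and low libraries. The values rest on 288, 104 and 86 reads in the WT and 155, 78 and 208 reads in the TG libraries, and the counting error at the lowest was 11.3%. The highest level was 3.58-fold the lowest, which is far more than counting would give. The SD within groups was 0.80 on the log2 scale, against a median of 0.16 for the 5137 genes within 2-fold of its level, and it was larger than that of 97.4% of them. Group means were 3.05 ± 2.03 and 2.95 ± 1.29 FPKM (SD, n = 3 each), a log2 difference of 0.03 (SE 0.50, limma adjusted p = 0.993). The 95% interval ran from -54.5% to 128%, so that differences in either direction that would be large for a gene lay within what these libraries could not tell from 0. The sign depended on single libraries, with 0.52 without WT1 and 0.44 without TG2, but -0.33 without WT3, -0.23 without TG3, -0.12 without TG1 and -0.10 without WT2.

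The genes whose profile over the 6 libraries was nearest to that of Slc6a13, among 11910 protein-coding genes with a mean of at least 1 FPKM, were Col1a1, Gjb2 and Ptgds. The measure was the root mean square difference of log2(FPKM + 0.1) after each gene's own mean was taken off, and it was 0.23, 0.24 and 0.24, against 0.66 for Slc6a13 about its own mean. Gjb2, the gap junction protein connexin 26, was at 4.88, 1.88 and 1.60 FPKM in the WT and 2.60, 1.99 and 3.94 FPKM in the TG libraries. Ptgds, a prostaglandin D synthase made in large amounts by the meninges and choroid plexus, was at 574, 225 and 192 FPKM in the WT and 424, 264 and 467 FPKM in the TG libraries. Like Slc6a13, both were highest in WT1 and above their WT2 and WT3 levels in TG3. They differed in TG2, where Slc6a13 was at its lowest while Gjb2 and Ptgds were above their WT2 and WT3 levels. Of 20 meningeal markers, which include the collagen gene Col1a1, 18 had a log2 difference above 0, with a median of 0.33. Over all genes tested, 49.6% were above 0, and 3.13% were higher at an unadjusted limma p under 0.05. Of the 20 markers, 0 passed adjustment and 1 was higher at that unadjusted level. The one was the sulfate transporter Slc13a4, which the choroid plexus also uses, at 2.11 ± 2.22 FPKM in WT and 5.76 ± 2.25 FPKM in TG mice (SD, n = 3, limma adjusted p = 0.786). Mgp, the matrix Gla protein, was the most abundant, at 17.1 ± 4.62 and 18.0 ± 2.38 FPKM.

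The summed level of the 20 meningeal markers was 91.8, 47.3 and 43.1 FPKM in WT1 to WT3 and 75.5, 64.7 and 74.9 FPKM in TG1 to TG3, and no marker was at 0 in all libraries. Slc6a13 and the mean of these markers had r = 0.845 (exact permutation p = 0.05, adjusted 0.075) and rho = 0.829 (exact permutation p = 0.0583, adjusted 0.0875) over 6 libraries, and r was 0.994 without WT2 and WT3. The relation thus did not pass adjustment over the 6 relations. TG1 and TG2, which had high choroid plexus markers, differed in Slc6a13 (3.37 and 1.50 FPKM). With the choroid plexus marker mean, Slc6a13 had r = -0.317 (exact permutation p = 0.528, adjusted 0.633) over 6 libraries. That r was 0.981 without TG1 and TG2, so the pooled value rests on those libraries. With the meningeal marker mean as a covariate, the log2 difference of Slc6a13 was -0.57, and its unadjusted limma p of 0.0560 was the smallest of any member under any setting. With the choroid plexus marker mean as a covariate it was 0.60, of the opposite sign. The part of meningeal tissue in the Slc6a13 level was not tested. Slc6a12, the betaine and GABA transporter next of kin, stood at 0.245 to 0.798 FPKM with its highest level in TG3.

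**Figure D3:**
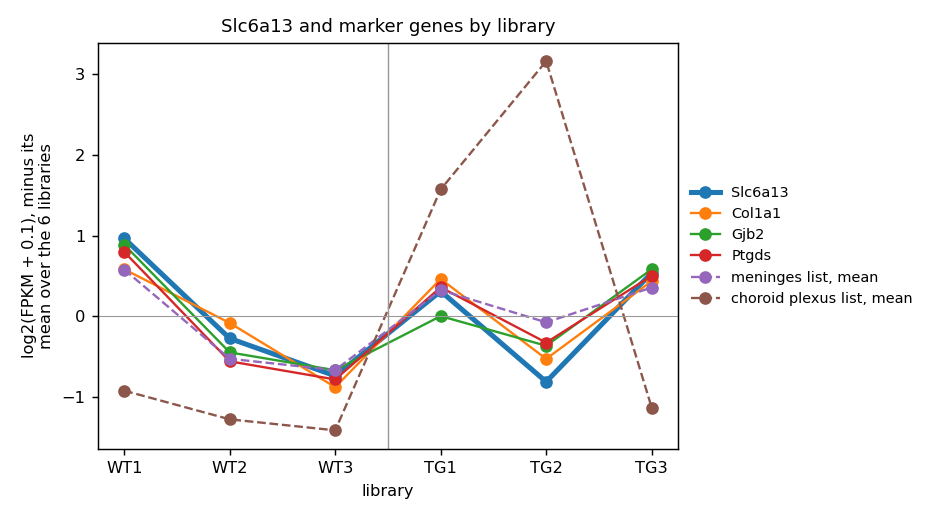
log2(FPKM + 0.1) of Slc6a13, its 3 nearest genes (Col1a1, Gjb2, Ptgds) and the mean of 20 meningeal and 16 choroid plexus markers, each minus its mean over the 6 libraries (y axis), by library (x axis), where lines only join the values of a gene or list. Slc6a13 and its 3 nearest genes are highest in WT1 and low in WT2, WT3 and TG2, while the choroid plexus markers are high in TG1 and TG2.

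Abat (ENSMUSG00000057880, chr16:8513429-8621568, + strand, 18 exon blocks) encodes GABA transaminase, the first enzyme of GABA breakdown and the target of the antiepileptic drug vigabatrin. It stood at 31.2, 30.9 and 25.8 FPKM in WT mice and at 33.4, 31.3 and 29.8 FPKM in TG mice. WT3 was the lowest library, and the other WT libraries lay within the TG range. The means were 29.3 ± 3.01 and 31.5 ± 1.76 FPKM (SD, n = 3 each), a log2 difference of 0.11 (SE 0.09, limma adjusted p = 0.789) with a 95% interval from -7.30% to 25.2%. It shrank to 0.02 without WT3.

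Aldh5a1 (ENSMUSG00000035936, chr13:24907579-24937661, − strand, 10 exon blocks) encodes the dehydrogenase that takes the product of Abat to succinate. Its level was 16.0, 16.6 and 15.1 FPKM in WT mice and 17.0, 15.9 and 16.1 FPKM in TG mice. This was the steadiest of the 7 genes, with 1.12-fold between the lowest and highest library. Its SD within groups was 0.06 on the log2 scale, and 11.4% of the 4185 genes within 2-fold of its level had a smaller one. The log2 difference was 0.04 (SE 0.07, limma adjusted p = 0.894), with a 95% interval from -8.03% to 14.8%, and it was 0.00 without WT3. Abat was 1.71 to 1.97 times as abundant as Aldh5a1 in every library. On the opposite strand, the antisense gene 4932702P03Rik (mean 0.135 FPKM) covers 796 bases of the exons of Aldh5a1. The noncoding gene 9330162012Rik (mean 0.894 FPKM), annotated as a bidirectional promoter RNA, covers 203 bases. With these, 13.7% of the 50-base stretches of Aldh5a1 are shared.

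**Figure D4:**
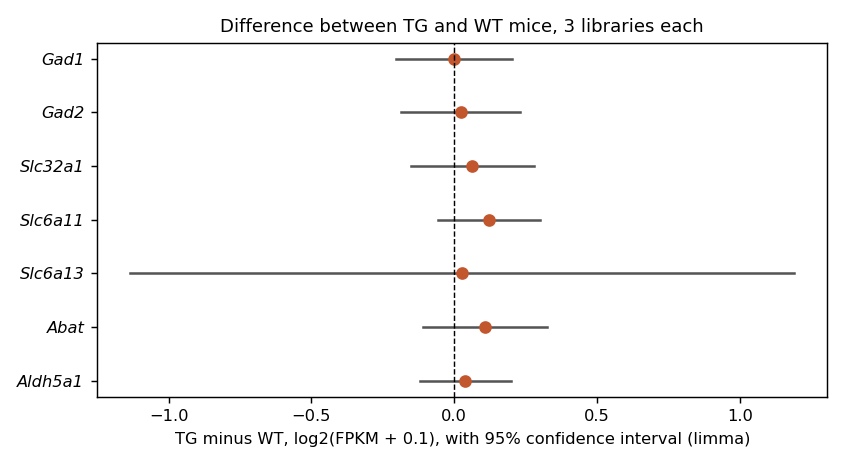
Fitted difference between TG and WT mice in log2(FPKM + 0.1) for each of the 7 genes (x axis, points) with its 95% confidence interval from limma (lines), from 3 libraries in each group. All 7 intervals include 0, and that of Slc6a13 (-1.13 to 1.19) is several times as wide as the others.

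In order of their mean over the 6 libraries, the levels were 44.4 FPKM for Gad1, 31.9 for Slc6a11, 30.4 for Abat, 27.5 for Gad2, 27.3 for Slc32a1, 16.1 for Aldh5a1 and 3.00 for Slc6a13. Gad1 was above Slc6a11, Slc32a1 above Aldh5a1 and Aldh5a1 above Slc6a13 in 6 of 6 libraries, with no overlap of their ranges. The neighbours in the middle of the order overlapped, since Slc6a11 was above Abat in 5 of 6 libraries, Abat above Gad2 in 5 of 6 and Gad2 above Slc32a1 in 4 of 6. Among the 20952 genes tested, Gad1 ranked 1042 by level, the other 5 ranked between 1545 and 3176, and Slc6a13 ranked 9783. Slc6a11 was 6.11 to 21.9 times as abundant as Slc6a13, a range set by the swings of the latter.

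TG1 was the library in which the members stood highest as a group. Leaving Slc6a13 aside, 6 of 6 genes in TG1 were above their WT mean, by 0.10 to 0.24 on the log2 scale and by 0.18 at the median, while the median of all genes tested was shifted by -0.00. In TG2 the count was 2 of 6 with a median of -0.02, and in TG3 it was 5 of 6 with a median of 0.03. Without TG1 the median log2 difference over the 7 members was -0.02, and without TG2 it was 0.11. The shift in TG1 was thus not seen in TG2. Other lists also moved in TG1 against their WT mean, with a median of 0.20 for the GABA-B receptor and scaffold list, 3.10 for choroid plexus, -0.23 for microglial and -0.65 for oligodendrocyte markers. The summed level of the oligodendrocyte markers was 409 FPKM in TG1 and 508 to 631 FPKM in the other libraries, and the part of tissue make-up in the levels of the members was not tested.

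The other genes nearest in profile are given as a description, with the same measure and the same 11910 genes. For Gad1 they were Prkar1b, Evl and Cldn5 (0.02 for Prkar1b), and for Gad2 they were Gdap1l1, Ache and Adrb1 (0.02 for Gdap1l1). Slc32a1 was nearest to Dgcr2, Chac2 and Amacr, and Slc6a11 to Jag1, Dnajb1 and Golim4. Abat was nearest to Hdlbp, Trappc10 and Mta3, and Aldh5a1 to Setdb1, Tmem151a and Drosha. None of these was another member by the rule, and the 6 members named here lay only 0.05 to 0.11 from their own means by the same measure.

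The rest of the pathway was followed in 2 lists. Over all genes tested, 5.91% passed an unadjusted and 0.00955% an adjusted limma p of 0.05. A count of 0 in lists this short thus says little. In a list of 13 other genes of GABA handling, all 13 were tested, 0 passed an adjusted p and 0 an unadjusted p of 0.05 in limma, and the median log2 difference was 0.02. Pdxk, the kinase that makes the pyridoxal phosphate used by GAD67, GAD65 and GABA transaminase, had the smallest p, at 18.7, 15.9 and 11.6 FPKM in WT mice and 19.8, 18.4 and 18.0 FPKM in TG mice. WT3 was low for Pdxk as it was for Abat, and the log2 difference of 0.30 had a limma adjusted p of 0.789. Akr1a1, an aldehyde reductase and the most abundant of the list, stood at 105 ± 12 and 98.3 ± 2.70 FPKM (SD, n = 3 each). In a list of 14 genes of GABA-B receptors and the scaffold of GABA synapses, all 14 were tested, 0 passed an adjusted p and 0 an unadjusted p of 0.05 in limma, and the median was 0.07. Iqsec3, a scaffold-bound exchange factor of inhibitory synapses, had the smallest p, at 18.1 ± 2.61 and 21.3 ± 2.54 FPKM (SD, n = 3 each, limma adjusted p = 0.789). The receptor subunit Gabbr1 was the most abundant, at 93.1 ± 4.37 and 92.9 ± 5.02 FPKM, and Gphn, the scaffold gephyrin, was at 18.9 ± 0.503 and 18.6 ± 1.21 FPKM.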

How the data were processed

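The authors counted reads per gene with HTSeq and deposited FPKM (reads scaled to exon length and library size), 1 column per library. GRCm38 (mm10) is the build in the submitters' processing notes, and the aligner and strand setting were not given in the sources used here. The methods name Trizol and NEBNext, the labels an RNeasy and a SMARTer kit. Groups and replicate numbers came from the sample titles.

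FPKM times gene length gave whole reads for 100% of the deposited values (tolerance 0.05 reads). The totals were 16081281 to 18751057 reads per library, and 3 reads on 1 kb give 0.160 to 0.190 FPKM. Without molecular identifiers, PCR copies cannot be told from molecules, and counting errors cover counting only. The 20952 genes averaging 0.1 FPKM or more were compared, 3 WT against 3 TG libraries, on log2(FPKM + 0.1) with limma 3.58.1 in R 4.3.3 (lmFit, eBayes with a trend, no covariate), adjusted by Benjamini-Hochberg and called under 0.05. The added 0.1 makes fold changes of low genes too small. The script was tested on simulated data. Relations between genes and lists used two-sided exact permutation tests over libraries. With 3 against 3, a two-sided permutation test cannot go below 0.1, so none is given for single genes.

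Coordinates are GENCODE M21 (GRCm38), where 53499 of the 54409 identifiers found had the same start and end as in the table. Coding sequences were aligned with Biopython 1.88, and Python 3.11.15 with numpy 2.4.6, pandas 2.3.3 and matplotlib 3.10.9 was used. The members and lists were chosen with earlier results of these data known. Lists held other GABA handling genes, GABA-B receptors and synapse scaffold, and markers of interneurons, astrocytes, principal neurons, meninges, choroid plexus, thalamus, striatum, endothelium, microglia, oligodendrocytes and sex. Genes named were all members, the 3 genes nearest to each in profile, and each list's gene with the smallest p and its most abundant gene. A few genes that this rule names are not reported here. Slc6a12 and Gphn were named in addition, after their values were seen. Alternatives were other pseudocounts and filters, quantile normalization, no variance trend, protein-coding genes only, limma-voom on recovered reads, a replicate block, left-out libraries and marker covariates.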

Additional observations from a re-analysis of the deposited data

How the results depend on the processing

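Under all 18 alternatives, 0 of 7 members passed an adjusted or an unadjusted p of 0.05 in limma, and the smallest unadjusted p was 0.0560 (Slc6a13, meningeal covariate). Slc6a11, Abat and Aldh5a1 stayed above 0 in 18 of 18, Gad2 and Slc32a1 in 16 of 18, Slc6a13 in 12 of 18 and Gad1 in 6 of 18. Gad1, at -0.0013 in the main fit, changed sign to 0.029 with quantile normalization, 0.078 with the choroid plexus covariate and 0.0023 with the meningeal covariate. Slc6a13 changed sign to -0.010 with quantile normalization and -0.57 with the meningeal covariate. Without TG1 and TG2 together, Gad1 turned to 0.028 and Slc32a1 to -0.014. With 1 library left out, signs also turned for Gad1 (without WT3 or TG2) and Gad2 (without WT2 or TG1). The same held for Slc32a1 (without TG1) and Slc6a13 (without WT2, WT3, TG1 or TG3). The cause was not tested. Slc6a13 was 0.60 with the choroid plexus covariate and 0.55 without TG1 and TG2. Leaving out both keeps 1 TG library, assumed to vary like the WT libraries, so its lack of calls says nothing about stability. Leaving out each library in turn gave -0.051 to 0.063 for Gad1, -0.050 to 0.10 for Gad2, -0.025 to 0.11 for Slc32a1, -0.33 to 0.52 for Slc6a13, and -0.025 (without TG1) to 0.11 (without TG2) for the median of the members.

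Over all genes tested, 2 were called and neither is a member. The count was 0 with a pseudocount of 0.01 or 1, with no filter, with protein-coding genes only, with limma-voom, with either covariate, and without TG1 and TG2 (1 TG library left), 1 with a filter at 1 FPKM, 9 without a variance trend, and 0 to 11 with each library left out (11 without TG1). Deviations from the group means correlated at 0.0109, 0.0516 and 0.0334 between same-numbered libraries, and at -0.0549 to 0.0192 between the others. Values this weak cannot settle whether the numbers pair the mice, and the sample titles do not say. With the replicate block, 0 genes and 0 members were called and no member changed sign. Of the 7, Slc6a13 had the fewest reads, at 78 to 288, with a counting error of 11.3% at the lowest. Its SD between libraries was larger, at 66.3% of the mean in WT and 43.7% in TG mice. The 3 libraries per group limit all 7.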

Other observations

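The markers of other tissues and cell types that the hippocampal sample could hold are given as values, and 0 genes of these lists passed an adjusted p of 0.05 in limma. Over all genes tested, 3.13% were higher and 2.78% lower at an unadjusted limma p under 0.05. Of 16 choroid plexus genes, 9 were higher and 0 lower at an unadjusted p under 0.05, with Kcnj13 at 0.350 ± 0.142 FPKM in WT and 6.18 ± 6.26 FPKM in TG mice (SD, n = 3) and Ttr, transthyretin, at 63.1 ± 12 and 1644 ± 1870 FPKM. Without TG1 and TG2 the median log2 difference of this list went from 2.75 to -0.04. Of 15 genes of hippocampal principal neurons, 0 were higher and 2 lower at that level. Of 10 oligodendrocyte genes, 1 had a log2 difference above 0, with a median of -0.28 that went to -0.12 without TG1 and to -0.08 without TG1 and TG2. None was higher and 1 was lower at an unadjusted p under 0.05, the myelin protein gene Opalin (10.9 ± 1.90 and 6.42 ± 1.75 FPKM), while Mbp, myelin basic protein, was at 260 ± 34.0 and 250 ± 47.2 FPKM.

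Of 10 microglial genes, 2 were higher and 0 lower at an unadjusted p under 0.05 in limma, led by the receptor gene Trem2 (2.77 ± 0.133 and 3.33 ± 0.0607 FPKM), and C1qa, of the complement system, was at 47.5 ± 2.73 and 51.3 ± 9.18 FPKM. The median log2 difference of the microglial list was 0.12, but 0.03 without TG3 and 0.25 without TG1. Of 10 endothelial genes, 1 was higher, the VEGF receptor gene Flt1 (5.39 ± 0.466 and 6.38 ± 0.389 FPKM), and Ly6c1 stood at 28.2 ± 4.12 and 26.2 ± 0.699 FPKM. For the neighbouring regions, 0 of 8 thalamic and 0 of 10 striatal genes tested passed at either level. Rgs16 and Prkcd were the thalamic genes with the smallest p and the highest level, and Ppp1r1b was both for the striatum. Of the sex-linked genes, 0 of 4 tested passed, and Eif2s3y had the smallest p. Ddx3y, of the Y chromosome, was between 10.6 and 12.3 FPKM in all libraries, with Xist under the filter, a male pattern. The part of these cell types in the levels of the 7 GABA genes was not tested.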
